A study of Mus musculus with 4 samples.

Results

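Divergent coding gene pairs are neighbouring protein-coding genes that lie on opposite DNA strands, head to head, so that the stretch between their transcription start sites (TSSs) is the promoter of both. Pairs were taken where the minus-strand TSS lay upstream of the plus-strand TSS by at most 1000 bp, and the region scored for each pair was the stretch between the TSSs with 500 bp added on each side. This rule, which uses the gene annotation of mm10 and no measured value, found 737 pairs made of 1465 genes, among 20558 coding promoter regions in all. Accessible chromatin had been profiled by ATAC-seq, in which the Tn5 transposase cuts and tags open DNA, in the macrophage line RAW264.7, a virus-transformed line of mouse origin. All cells received DIL-oxLDL, fluorescently labelled oxidized low-density lipoprotein, at 25 μg/mL for 24 h. Control cells received the solvent DMSO (2 libraries) and treated cells received esculetin, a plant coumarin, at 40 μg/mL (2 libraries), so that every group carried the lipoprotein load and none was without it.

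Such bidirectional promoters are a common arrangement in mammalian genomes. They are usually rich in CpG dinucleotides, mostly lack a TATA box, often serve housekeeping genes of DNA repair, mitochondria, RNA processing and histone production, and are held open as a nucleosome-depleted stretch from which RNA polymerase II starts in both directions. In ATAC-seq, an open promoter gives a peak, and the summit of the peak is the base with the most transposase fragments.

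Each library came as its own list of peaks, with 19595 and 27833 peaks in the controls and 8677 and 12792 peaks with esculetin. The genome-wide background coverage, the only measure of depth that the lists hold, was 6.51 and 4.08 reads in the controls and 4.97 and 4.10 reads with esculetin. The number of peaks therefore did not follow depth, and the lists of the treated cells were shorter than those of both controls. Of 10 macrophage marker genes, 4 and 6 had a peak within 1 kb of the TSS in the controls and 1 and 3 with esculetin, with Spi1, the gene for the myeloid transcription factor PU.1, in all 4 lists; defining genes such as Csf1r and Adgre1 had none. No marker gene of epithelial cells, T cells, B cells or fibroblasts had a peak in any library. The peak names inside the esculetin lists carry other sample numbers than the labels do, and the labels were followed. No source says that the replicates were separate cultures, so that p-values measure only the spread between these samples, which may be technical. In bulk chromatin, fewer cells with an open promoter and less opening per cell cannot be told apart.

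Members lay close together. The quartiles of the distance between the TSSs were 48 and 235 bp, 367 pairs were at most 100 bp apart and 65 were more than 500 bp apart. Pairs were found on 20 chromosomes, with 17 on the X chromosome, and 9 genes belonged to more than 1 pair, so that a peak can count for neighbouring members. Of 16 well-known pairs looked up by name, 6 met the rule. They were Psmb9/Tap1, Atm/Npat, Mcm4/Prkdc, Sirt3/Psmd13, Mrps12/Sars2 and Wrap53/Trp53, with the minus-strand gene written first. In the other 10, among them the chaperonin pair Hspd1/Hspe1, the annotated 5′ ends overlap, and these are counted with the overlapping pairs used for comparison.

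The sequences between the TSSs of 5 of these known pairs are shown because they are the shared promoters themselves, and because they differ in the promoter motifs they hold. Each is the RefSeq reference of GRCm38.p6 (mm10), plus strand, without the first base of either gene, and capitals mark matches on either strand to CCAAT (the NF-Y box), GGGCGG (SP and KLF factors), CCGGAAG (ETS), GCGCATGCG (NRF1), TGACGTCA (CRE), TATAAA (the box bound by TBP), TTGCGCAA (C/EBP) or GATGGCGG (YY1), where neighbouring matches can run together. Psmb9/Tap1 lies at chr17:34187331-34187555, Atm/Npat at chr9:53536829-53536888, Sirt3/Psmd13 at chr7:140882310-140882393, Mrps12/Sars2 at chr7:28741822-28741956 and Wrap53/Trp53 at chr11:69580251-69580347.
Psmb9/Tap1: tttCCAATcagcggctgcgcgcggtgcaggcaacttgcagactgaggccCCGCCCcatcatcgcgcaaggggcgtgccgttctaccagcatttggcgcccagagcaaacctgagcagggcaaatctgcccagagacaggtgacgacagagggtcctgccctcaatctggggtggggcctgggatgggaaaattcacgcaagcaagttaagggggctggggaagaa
Atm/Npat: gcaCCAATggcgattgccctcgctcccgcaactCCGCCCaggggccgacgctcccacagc
Mrps12/Sars2: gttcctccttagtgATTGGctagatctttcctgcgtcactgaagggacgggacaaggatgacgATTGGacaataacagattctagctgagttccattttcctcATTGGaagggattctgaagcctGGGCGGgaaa
Sirt3/Psmd13: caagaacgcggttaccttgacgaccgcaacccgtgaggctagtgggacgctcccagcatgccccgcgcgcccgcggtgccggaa
Wrap53/Trp53: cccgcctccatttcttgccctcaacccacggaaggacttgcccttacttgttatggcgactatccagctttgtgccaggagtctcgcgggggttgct
The promoter between Psmb9, an immunoproteasome subunit, and Tap1, the peptide transporter of antigen presentation, held a CCAAT box and a GGGCGG box. Mrps12/Sars2, which encode a mitochondrial ribosomal protein and the mitochondrial seryl-tRNA synthetase, held 3 CCAAT boxes and 1 GGGCGG box. The stretches of Sirt3/Psmd13 and Wrap53/Trp53 held none of the motifs searched.

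Whether divergent promoters were open was asked first. A peak overlapped the region by at least 1 bp in 615 and 622 of the 737 pairs in the controls and in 538 and 612 pairs with esculetin, which is 83.4% and 84.4% against 73.0% and 83.0%. Among all coding promoter regions, 34.7% and 35.9% held a peak in the controls and 25.7% and 32.4% with esculetin. The share averaged 83.9% ± 0.67 in the controls and 78.0% ± 7.10 with esculetin (SD, n = 2 per group). The difference of -5.90 points was smaller than the SD of the esculetin libraries. Both esculetin shares lay below both controls, where the two-sided exact permutation test gives p = 0.33. That is the smallest p that 4 libraries allow, so the test cannot decide. The lower mean came from esculetin replicate 1, the library with the fewest peaks, and without it the difference was -0.88. When the 8677 strongest peaks of every list were used, the order of the groups turned round: 65.9% and 49.1% of pairs held a peak in the controls, and 73.0% and 77.6% with esculetin (exact p = 0.33).

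Divergent pairs held a peak far more often than coding promoters that stand alone. In single coding promoters, those with no other coding TSS within 1 kb, the share was 30.8% and 32.2% in the controls and 22.2% and 28.6% with esculetin. The gap to divergent pairs was 52.6, 52.2, 50.8 and 54.4 percentage points in control 1, control 2, esculetin 1 and esculetin 2, in the same direction in 4 of 4 libraries (exact sign-flip test over libraries, p = 0.13, the smallest possible with 4). It differed by 0.18 points between the groups (exact permutation p = 1). It was nearly as wide with regions of one length, at 52.3 points on average in a 1 kb window centred between the TSSs. Coding genes that stand head to head with a lncRNA gene lay in between, with peaks in 53.0%, 55.4%, 42.6% and 51.7% of 760 regions; these coding genes are also counted among the single promoters. Overlapping head-to-head pairs came nearest, with peaks in 79.0%, 80.0%, 62.1% and 72.6% of 420 regions, and the gap of divergent pairs to them was 4.40 points in both controls and 10.9 and 10.4 points with esculetin (exact permutation p = 0.33 for the change in the gap).

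**Figure D1:**
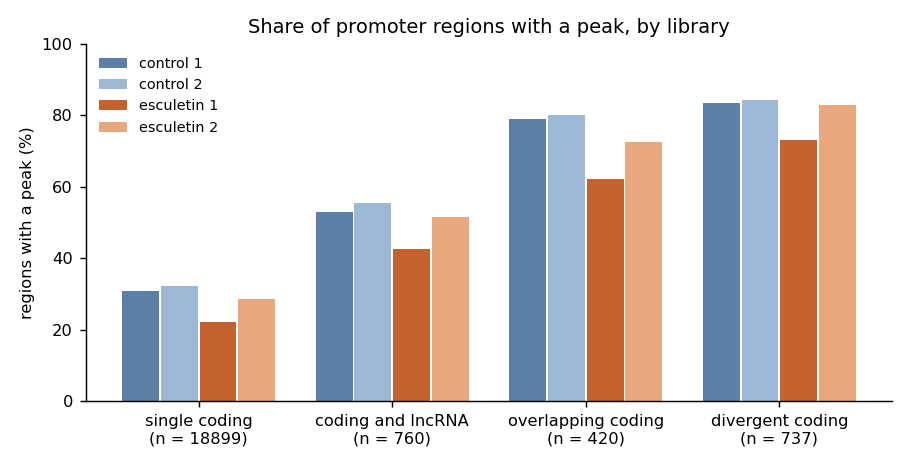
Share of promoter regions with at least 1 peak (vertical axis, %) in each of the 4 libraries, for 4 arrangements of coding promoters; each bar is 1 library. Divergent pairs stand highest in every library, from 73.0% to 84.4%, and single coding promoters lowest, from 22.2% to 32.2%.

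The peaks were also stronger and wider than at single promoters. Within its own list, the strongest peak of a called divergent pair had a median percentile by p-value of 78.0 and 72.8 in the controls and of 66.3 and 75.5 with esculetin, against 71.0, 65.3, 59.4 and 65.7 for single promoters. Median widths were 520 and 512 bp in the controls and 479 and 528 bp with esculetin, on average 72.0 bp wider than at single promoters. Relative summit coverage, the reads at the summit over the genome-wide background, had medians of 6.76, 9.32, 7.65 and 9.76 in control 1, control 2, esculetin 1 and esculetin 2, against 6.15, 8.58, 6.84 and 8.29 at single promoters. For all 3 measures, divergent pairs were higher in 4 of 4 libraries (exact sign-flip p = 0.13 each), and the differences of these gaps between the groups gave an exact permutation p of 1, 1 and 0.33. The most similar arrangements shared part of this: at coding genes head to head with a lncRNA gene, the median percentiles were 78.7, 71.8, 68.0 and 73.0 and the median relative coverages 6.76, 9.32, 7.65 and 9.03, and at overlapping head-to-head pairs the median widths were 529, 486, 500 and 525 bp. These sets were not tested against the divergent pairs for these measures.

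Of the 737 pairs, 662 were called in at least 1 library and 499 (67.7%) in all 4, where 22.6% of all coding promoter regions were called in all 4. Among regions called at all, 75.4% of divergent pairs and 52.8% of single promoters were called in every library. With the 8677 strongest peaks of each list, 317 pairs (background 12.8%) were called in all 4. The most frequent partial pattern was a peak in every library but esculetin 1, seen in 61 pairs or 8.28% (background 5.27%). Of regions called in at least 1 library, this pattern took 9.21% of divergent pairs, 12.9% of all coding promoter regions and 13.3% of single promoters.

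**Figure D2:**
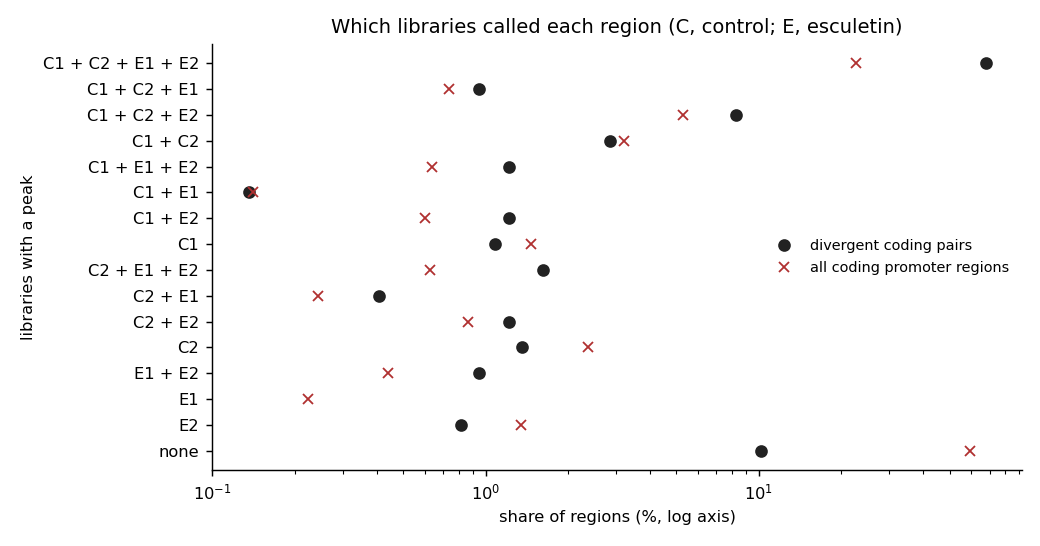
Share of regions (horizontal axis, %, log scale) with a peak in exactly the libraries named on the vertical axis (C, control; E, esculetin), for the 737 divergent pairs (circles) and the 20558 coding promoter regions (crosses); a share of 0 has no marker. Calls in all 4 libraries take 67.7% of pairs against 22.6% of regions, and calls in both controls alone take 2.85% against 3.23%.

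Most members of the gene groups known for divergent promoters had a peak, and the counts below stand beside 67.7% called in all 4 libraries and 10.2% without a peak over all 737 pairs. DNA replication and repair genes took part in 32 pairs, of which 27 were called in all 4 libraries and none was without a peak. Within this group Atm/Npat, which joins the kinase of the double-strand break response with a coactivator of histone transcription, had the highest mean percentile (95.6), a mean taken here and below over the libraries that called the pair, so that pairs can rest on different libraries. The lowest were Tsc2/Nthl1 (34.5), called in the controls alone, and Lig4/Abhd13 (31.2). Respiratory chain genes took part in 31 pairs, 23 of them called in all 4 libraries and none without a peak, with Sdha/Ccdc127 highest (87.5) and Ndufs3/Kbtbd4, called in control 2 only, lowest (13.1). Among 20 pairs with a mitochondrial ribosome gene, 12 were called in all 4 libraries, and Mrpl32/Psma2, shared with the proteasome group, was highest (90.8).

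Genes of RNA polymerases and splicing took part in 34 pairs, of which 25 were called in all 4 libraries, led by Rita1/Ddx54 (94.8) and Hnrnpc/Rpgrip1 (93.1). Histone genes, which sit as divergent H2A and H2B pairs in clusters, made up 13 pairs, and 11 were called in all 4 libraries. Within them, H2ac6/H2bc4 ranked highest (82.0), and H2bc1/H2ac1 had no peak. All 8 pairs with an aminoacyl tRNA synthetase had a peak, 6 of them in every library. Of 9 proteasome pairs 6 were called in all 4, and of 20 zinc finger pairs 12 were, with 3 never called. The short list of lipid and cholesterol genes used here met 2 pairs, Nadsyn1/Dhcr7, which holds the last enzyme of cholesterol synthesis, and Npc2/Isca2, which holds a lysosomal cholesterol carrier, and both were called in every library, at mean percentiles of 91.8 and 89.3.

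Of 7 pairs with a gene of antigen processing, interferon response or the Trim family, 3 were called in all 4 libraries and 3 in none, among the latter Stat5b/Stat5a, transcription factors of cytokine signalling, and Ifit1bl2/Ifit1, interferon-induced genes. Of the 3 called in all 4, Shld3/Trim23 and Trappc13/Trim23 share the gene Trim23. Both pairs with a gene of the tissue-restricted families searched, Olfr181/Olfr183 and Ash2l/Kcnu1, had no peak. In the latter pair only Kcnu1 belongs to such a family.

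In all, 75 pairs (10.2%) had no peak in any library, against 63.2% of single promoters. These include pairs named for other tissues, such as Kirrel2/Nphs1 with the podocyte gene nephrin and Duox2/Duoxa2 of thyroid hormone synthesis, and the imprinted pairs Peg3/Usp29 and Sgce/Peg10; all 4 were chosen after their values were seen. In this set, 20 of the 65 pairs over 500 bp apart appear, which is 30.8% of that class.

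The 8 pairs whose lowest percentile over the 4 libraries was highest were Dcaf6/Mpc2, Zfp654/Cggbp1, Etfdh/4930579G24Rik, Srd5a1/Nsun2, Dad1/Abhd4, Sugct/Mplkip, Anxa5/1810062G17Rik and Cdca2/Kctd9. Dcaf6/Mpc2, which holds a subunit of the mitochondrial pyruvate carrier, had relative summit coverages of 18.6 and 24.8 in the controls and 17.3 and 19.8 with esculetin. Anxa5/1810062G17Rik, which holds the phosphatidylserine-binding annexin A5, had relative coverages of 10.3 and 18.6 in the controls and 11.5 and 13.2 with esculetin, and the groups overlapped. At Dad1/Abhd4, with an oligosaccharyltransferase subunit, relative summit coverages were 8.76 and 14.7 in the controls and 11.7 and 14.6 with esculetin, so that the groups overlapped.

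The known pairs differed in the reads at their summits, which are given as counted and not scaled to the background. Atm/Npat had 73, 60, 69 and 70 reads in control 1, control 2, esculetin 1 and esculetin 2, and Mcm4/Prkdc, a replicative helicase subunit beside the catalytic subunit of DNA-dependent protein kinase, had 49, 36, 49 and 52. At Psmb9/Tap1 the counts were lower, at 29, 27, 29 and 34 reads. Mrps12/Sars2 had 34 and 31 reads in the controls and 39 and 43 with esculetin. Sirt3/Psmd13, a mitochondrial deacetylase and a proteasome subunit, had 56 and 49 reads in the controls and 30 and 28 with esculetin, at its strongest peak in each library. That peak was not the same in each: the summit lay 484 bp to the minus-gene side of the midpoint in control 1 and within 15.5 bp of it in the other libraries. Wrap53/Trp53, the promoter of the tumour suppressor p53, was called in control 2 (26 reads) and esculetin 1 (30 reads) only, at percentiles of 39.2 and 34.6 in these lists.

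Where the summit falls between the genes was asked next. Summits fell inside the region in 611 and 618 pairs in the controls and in 534 and 603 with esculetin, and the shares here are over these pairs. The strongest summit lay between the TSSs in 52.7% and 48.9% of them in the controls and in 51.9% and 52.9% with esculetin, while the stretch between the TSSs made up 12.7% to 13.1% of the region. The groups differed by 1.60 points, less than the libraries within the control group did (exact permutation p = 0.67). This difference was -0.31 without control 2, 3.52 without control 1 and -0.54 with the 8677 strongest peaks of each list. Outside the stretch, summits fell within the minus-strand gene in 26.0%, 27.0%, 24.3% and 23.2% of pairs and within the plus-strand gene in 21.3%, 24.1%, 23.8% and 23.9%. The median summit was at -3 and -5.5 bp from the midpoint in the controls and at -3 and 0 bp with esculetin, and 75.2% to 79.5% of summits were within 150 bp of it. At single promoters the median summit lay 23, 19, 22 and 25 bp upstream of the TSS. In 84.3%, 82.5%, 83.1% and 88.6% of these pairs, a single peak reached over both TSSs.

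**Figure D3:**
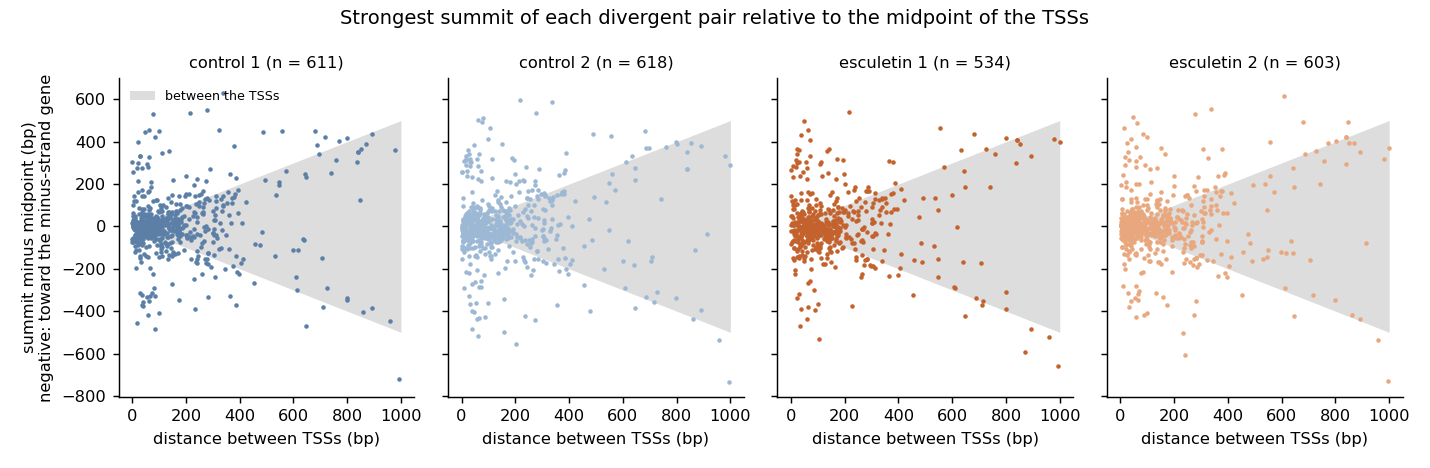
Position of the strongest summit relative to the midpoint between the TSSs (vertical axis, bp; negative values point toward the minus-strand gene) against the distance between the TSSs (horizontal axis, bp), with 1 point per pair and 1 panel per library. Grey marks the stretch between the TSSs; points gather around 0 below 200 bp and spread toward both TSSs above 500 bp.

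Among the 499 pairs called in all 4 libraries, the same site was found again. The summits of any 2 libraries lay a median of 31 to 42 bp apart, and 76.0% to 82.8% were within 100 bp. As a description over these pairs, which share libraries and depth, the log2 relative coverage correlated at r = 0.74 between the controls and r = 0.72 between the esculetin libraries, and at r = 0.43 to 0.54 across the groups.

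The open region differed in shape with the distance between the genes. Of pairs over 100 and up to 200 bp apart, 83.2% were called in all 4 libraries, against 62.4% of pairs up to 100 bp apart and 52.3% of pairs over 500 bp apart. In the closest pairs, the library esculetin 1 called 68.7%, where the other libraries called 82.6% to 84.7%. Median peak widths in control 1 were 497 bp in the closest pairs, 586 bp at over 300 to 500 bp and 466 bp above 500 bp. In control 2 they were 492, 627 and 470 bp, in esculetin 1 419, 608 and 464 bp, and in esculetin 2 491, 632 and 509 bp, so that in each library the middle class was the widest of these 3. Summits lay a median of 36.0 to 45.5 bp from the midpoint in the closest pairs and of 307 to 340 bp in pairs over 500 bp apart. At the edge of the rule, 9 pairs 913 to 1000 bp apart were called in 3 and 5 of 9 cases in the controls and in 4 and 5 with esculetin, and 5 pairs just outside it, 1007 to 1071 bp apart, were called in 4, 4, 2 and 4 of 5 cases in the same order. These distance classes are described without a test.

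A divergent promoter can be open as 1 region or as separate ones. At least 2 summits were called in 8.78% and 7.40% of called pairs in the controls and in 2.97% and 2.29% with esculetin, against 3.16%, 3.32%, 0.857% and 0.813% of single promoters. In overlapping head-to-head pairs the shares were higher than in divergent pairs in all 4 libraries, at 10.2%, 11.01%, 3.07% and 3.28%. In divergent pairs the share averaged 8.09% ± 0.98 in the controls and 2.63% ± 0.49 with esculetin (SD, n = 2 per group), and the change of -5.46 points was larger than the spread of the libraries (exact permutation p = 0.33, the lowest possible). The order of the groups was not kept when each library was cut to its 8677 strongest peaks. The shares were then 3.29% and 0.829% in the controls and 2.97% and 1.57% with esculetin, 0.21 points higher on average with esculetin (exact p = 1). Pairs over 500 bp apart had 2 or more summits most often, at 25.0%, 23.3%, 21.1% and 9.76% in control 1, control 2, esculetin 1 and esculetin 2, and pairs up to 100 bp apart at 4.95%, 4.82%, 1.59% and 0.990%. The scored region is longer in pairs farther apart, and the part of its length in these shares was not tested. In a 1 kb window centred between the TSSs, the share over all called pairs was 7.49%, 5.98%, 2.05% and 1.47% in the same order.

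**Figure D4:**
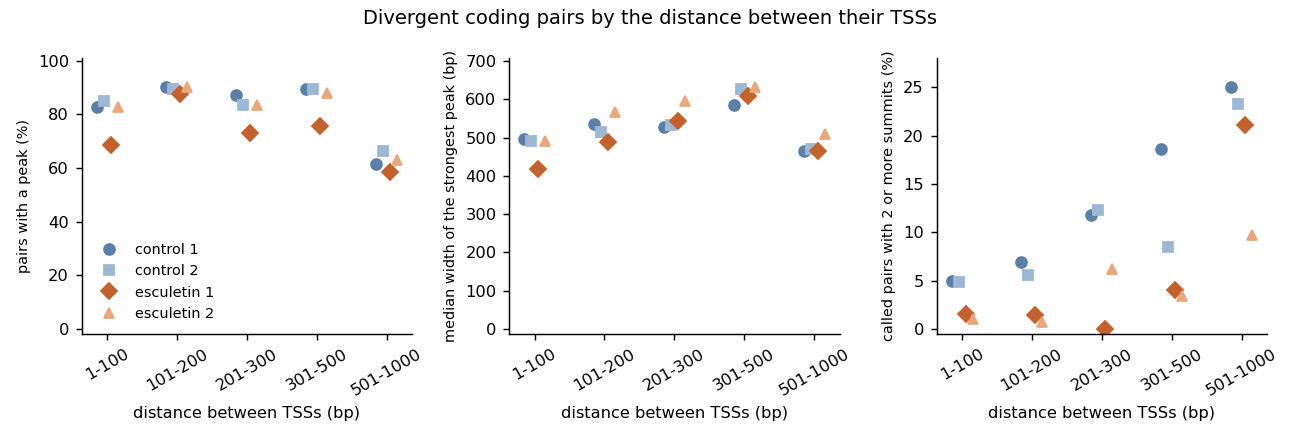
Share of divergent pairs with a peak (left, %), median width of the strongest peak (middle, bp) and share of called pairs with 2 or more summits (right, %) in bins of the distance between the TSSs (horizontal axis, bp), with 1 marker per library. Pairs over 500 bp apart had a peak least often, from 58.5% to 66.2%, and 2 or more summits most often, from 9.76% to 25.0%.

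Only 4 pairs had 2 or more summits in all 4 libraries, of 90 with them in any. Gart/Son, which joins a purine synthesis enzyme with a splicing cofactor across 852 bp, had summits 745 to 792 bp apart, with the stronger always on the Son side, 366 to 396 bp from the midpoint. At Txndc9/Eif5b, with a translation initiation factor and 716 bp between the TSSs, the outer summits were 730 to 1131 bp apart. Fiz1/Zfp524, a zinc finger pair 488 bp apart, had summits spread over 563 to 1105 bp. Atp6v1a/Naa50, with a subunit of the vacuolar proton pump, was the exception in distance, since its TSSs are 89 bp apart and its summits 410 to 487 bp.

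Which pairs were called in 1 group alone was then listed. Both controls and no esculetin library called 21 pairs, or 2.85%, where 3.23% of all coding promoter regions did the same. Among regions called at all, the shares were 3.17% of divergent pairs, 7.91% of all and 8.69% of single promoters. The 8 with the highest rank were Ltbr/Scnn1a, Klhl18/Kif9, Emc3/Fancd2, Slf1/2210408I21Rik, Coa3/Cntd1, Ampd2/Gnat2, Sirt6/Ankrd24 and Git2/Ankrd13a. Ltbr, the lymphotoxin β receptor, shares its promoter with a sodium channel gene and had 43 and 36 reads at the summit in the controls. Emc3/Fancd2, with the Fanconi anaemia gene of crosslink repair, had 35 and 31 reads, and Sirt6/Ankrd24, with a chromatin deacetylase, had 32 and 33. In 3 of these 21 pairs a DNA replication or repair gene takes part, as it does in 32 of all 737. With the 8677 strongest peaks of each list, 3 of 737 pairs showed this pattern (background 0.472%), all of them among the 8 named and with Emc3/Fancd2 and Sirt6/Ankrd24 not among them, and without esculetin 2 it held in 82 pairs (background 8.49%).

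The reverse pattern, both esculetin libraries and no control, was seen in 7 pairs, or 0.950%, where 0.438% of all coding promoter regions showed it. Among regions called at all, the shares were 1.06% of divergent pairs and 1.07% of all. Without control 1, control 2 or esculetin 1 the pattern held in 16, 19 and 13 pairs (background 1.08%, 1.07% and 1.79%). Slc39a7/Rxrb ranked highest. It joins a zinc transporter with the nuclear receptor RXRβ, had 51 reads in esculetin 1 and 42 in esculetin 2, and its summits fell 2 and 0 bp from the midpoint. The stretch, at chr17:34031691-34031811, is shown because these summits fall in it, with an NRF1 box and a GGGCGG box in capitals.
Slc39a7/Rxrb: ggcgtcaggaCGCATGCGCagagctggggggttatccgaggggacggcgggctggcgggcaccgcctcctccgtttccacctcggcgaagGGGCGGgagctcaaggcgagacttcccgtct
The other 6 were Ddx49/Cope, Lsm7/Sppl2b, Fam126b/Ndufb3, Rfng/Gps1, Nek8/Tlcd1 and Dpm1/Mocs3, with 18 to 35 reads and percentiles of 14.6 to 56.4 in their lists. At Dpm1/Mocs3, with a subunit of dolichol-phosphate mannose synthase, 26 and 18 reads were seen. With a stricter threshold, a -log10 q of at least 5, 4 of the 7 kept the pattern. With the 8677 strongest peaks of each list, 70 pairs showed it (background 3.85%), among them 5 of these 7.

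The size of the opening was compared in the 499 pairs with a peak in all 4 libraries. Coverage was taken at the strongest summit of each library, so that different sites can be compared within a pair. Summit coverage over the genome-wide background was fitted with limma over all 4649 coding promoter regions called in all 4 libraries, with Benjamini-Hochberg adjustment over all of them. The median log2 relative coverage of divergent pairs was 2.85 and 3.29 in the controls and 2.94 and 3.39 with esculetin, so that replicate 2 stood above replicate 1 in each group by more than the groups stood apart. The median log2 difference, esculetin minus control, was 0.12 in divergent pairs and 0.04 in the other regions, and 308 pairs (61.7%) had a positive difference against 54.4% of the other regions. The direction rested on single libraries, since the median was -0.12 without control 1 and -0.10 without esculetin 2. In this fit, which held no term for the replicate number, no region passed an adjusted p of 0.05 (0 of 4649, background 0%). Regions did pass with such a term, and their number is given in the closing section. Without that term, 31 of the 499 pairs and 223 of all regions (4.8%) had an unadjusted p under 0.05.

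When the libraries were brought to a common median, a scaling fixed as an alternative, 207 of the 4649 regions (4.45%) passed the limma threshold, 115 higher (2.47%) and 92 lower (1.98%) with esculetin. Divergent pairs made up 26 of them, 18 higher and 8 lower. With quantile normalization 2 pairs passed (background 0.194%), so that passing the threshold depended on the scaling. The 26 pairs are given as values, and they were chosen after their values were seen. With the background scaling, the libraries of the groups did not overlap in 112 of 499 pairs with esculetin higher, or 22.4% (background 18.3%), and in 41 with esculetin lower, or 8.22% (background 10.4%). Under median centring they did not overlap in 180 of 499 pairs with esculetin higher, or 36.1% (background 29.4%), and in 93 with esculetin lower, or 18.6% (background 23.3%).

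Erp29/Tmem116, with a chaperone of the endoplasmic reticulum, had 38 and 34 reads in the controls and 69 and 74 with esculetin, or relative coverages of 5.84 and 8.33 against 13.9 and 18.1. The groups did not overlap, and the centred log2 difference was 1.17 (SE 0.22, limma adjusted p = 0.0099), where the fit on background-scaled values gave 1.18 (adjusted p = 0.98). Mrps18b/Ppp1r10, a mitochondrial ribosomal protein and a regulatory subunit of protein phosphatase 1, had 50 and 45 reads in the controls and 89 and 83 with esculetin, and rose under centring (1.03, SE 0.22, limma adjusted p = 0.015). Tbc1d17/Akt1s1, which holds the mTORC1 component PRAS40, had 41 and 31 reads in the controls and 68 and 69 with esculetin. Mob3a/Izumo4 and Plekhj1/Sf3a2, the latter with a splicing factor of the U2 particle, had 59 and 53 against 99 and 96 reads and 28 and 29 against 53 and 46. Among the other higher pairs were Atp6v1d/Eif2s1, Qpctl/Snrpd2, Mrpl49/Fau, Rnf5/Agpat1 and Tcta/Rhoa, with centred log2 differences of 0.96, 0.88, 0.86, 0.79 and 0.76.

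Of the 8 lower pairs under centring, Ndufa8/Morn5 had 43 and 48 reads in the controls and 23 and 19 with esculetin, and Ndufa5/Asb15 had 59 and 44 against 28 and 23. Tmtc3/Cep290, with a protein of the ciliary transition zone, had 78 and 66 reads in the controls and 27 and 39 with esculetin, a centred log2 difference of -0.97 (SE 0.22, limma adjusted p = 0.021). Ccdc148/Pkp4, with plakophilin 4, had 50 and 52 against 22 and 25 reads. Slc30a7/Extl2, Eri2/Rexo5, Polr3g/Mblac2 and Cenpq/Mmut completed the list, with centred log2 differences of -0.93, -0.99, -0.85 and -0.76.

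**Figure D5:**
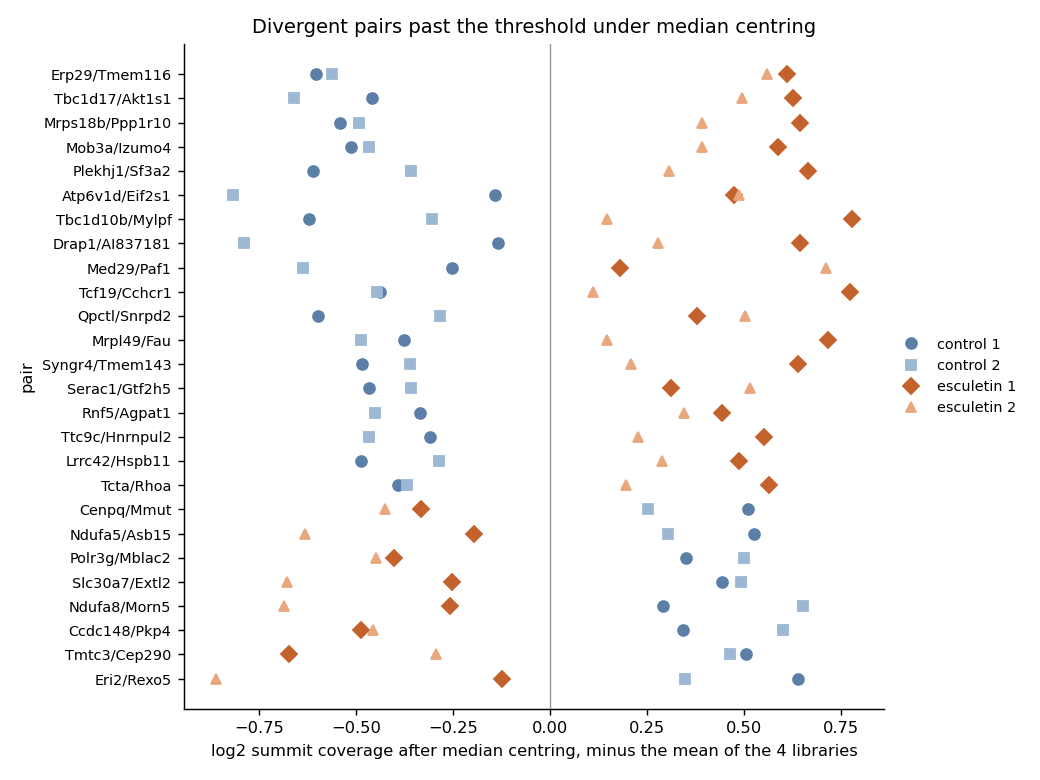
The 26 divergent pairs past the limma threshold under median centring (vertical axis), with the log2 summit coverage of each library minus the mean of the 4 libraries (horizontal axis). In each of these pairs the libraries of the groups do not overlap, with 18 pairs higher and 8 lower with esculetin. With the background scaling and no term for the replicate number, none of them passes the threshold.

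The stretches of a higher and a lower pair are shown with the same marks, because they are the pairs with the lowest centred adjusted p in each direction. Erp29/Tmem116 lies at chr5:121452475-121452579 and Tmtc3/Cep290 at chr10:100487366-100487547.
Erp29/Tmem116: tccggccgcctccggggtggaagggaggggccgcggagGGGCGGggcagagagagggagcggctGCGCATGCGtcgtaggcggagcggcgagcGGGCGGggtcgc
Tmtc3/Cep290: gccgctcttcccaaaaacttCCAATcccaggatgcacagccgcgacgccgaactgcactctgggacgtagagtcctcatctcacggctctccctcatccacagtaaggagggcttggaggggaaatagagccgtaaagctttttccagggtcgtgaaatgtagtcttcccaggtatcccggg
The first held 2 GGGCGG boxes and an NRF1 box, and the second a CCAAT box. As a description, the GC content of the promoter windows had a median of 62.4% over the 456 of 499 pairs with a sequence, 67.3% in 15 of the 18 higher pairs and 64.2% in the 8 lower pairs. Over the 456 pairs, GC content and the log2 difference correlated at r = 0.04. The part of base composition in the differences was not tested.

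What divergent promoters share in sequence was described from the RefSeq windows of 300 bases, 250 before and 50 after a start. A window with its start within 500 bp of the gene's 5′ end was found for 1141 of the 1465 genes. Their median GC content was 62.3% and their median ratio of observed to expected CpG was 0.854, against 55.0% and 0.499 in single coding promoters. Single promoters called in all 4 libraries stood close to them, at 63.3% and 0.834. Genes of pairs that were never called were lower, at 57.0% and 0.549 (94 windows).

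GGGCGG was held by 68.2% of the windows of divergent genes and 46.3% of all coding windows. CCGGAAG, the ETS motif, was held by 29.1% against 12.1%, GATGGCGG by 6.22% against 2.33% and GCGCATGCG by 5.26% against 2.58%. TATAAA went the other way, with 5.08% against 13.9%. CCAAT was nearly even, at 45.7% against 39.7%, and TTGCGCAA, the palindrome bound by C/EBP factors, was rare in both, at 0.438% and 0.218%. In single promoters called in all 4 libraries, GGGCGG was more frequent than in divergent pairs called in all 4 (78.9% against 73.6%), and CCGGAAG less so (21.3% against 28.3%), while GCGCATGCG (6.40% against 6.39%) and TATAAA (5.37% against 4.14%) were near each other. The ETS motif was held by 7.45% of windows of never-called pairs. Of 437 stretches of at least 20 bases between the TSSs, 183 held GGGCGG, 143 CCAAT, 48 CCGGAAG and 8 TATAAA, and 31.8% held none of the motifs searched. A match is a run of letters and says nothing of binding.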

How the data were processed

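Bulk ATAC-seq of RAW264.7 cells was analysed from 4 peak lists. The authors trimmed reads with Trim Galore, aligned them to mm10 with Bowtie2, used Sambamba against duplicates and multimapped reads, and ran MACS2, here 1 list per library. The deposited lists hold, per peak, a score, a fold ratio at the summit, and −log10 p and −log10 q values. No read counts are in them, so the study's count test was not applied. Reads and local background at each summit were solved from the fold and the −log10 p of MACS2's Poisson test. This succeeded for 99.977% to 100% of peaks in each library, and on 2000 simulated peaks, 2000 were recovered. The commonest local background was taken as the genome-wide one.

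TSSs were the 5′ ends of RefSeq genes (GRCm38.p6). Strand came from the RefSeq promoter table (17492 coding genes), otherwise from GENCODE vM39 by symbol (3772) or synonym (22), with no coordinate taken from it; 21286 of 21887 coding genes had a strand, and 581 of 737 pairs had both from RefSeq. A call needed an overlap of 1 bp. Shares were compared over libraries by two-sided exact permutation tests (smallest p 0.33) and gaps by exact sign-flip tests (smallest p 0.13), with Python 3.11.15 and scipy 1.17.1. Coverage, as log2 of reads over background without pseudocount, was tested with limma 3.58.1 in R 4.3.3 at an adjusted p of 0.05. This fit was also tested on simulated data, which held no offset between replicates and so do not cover the offset seen here. On background-scaled values without a replicate term, the spread estimate was shared by all regions. Under median centring it differed between regions. Sequences were not used for chromosome 18.

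Pairs named in the text were well-known pairs; the 8 of highest rank in all libraries; up to 8 called in 1 group only; the highest and lowest of each gene group; up to 8 past the threshold, of which there were none; and the 4 with 2 or more summits in all 4 libraries. Pairs past the threshold under median centring and some pairs without a peak were named after their values were seen. Some pairs that this rule names are not reported here. Members and lists were chosen with earlier results of these data known.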

Additional observations from a re-analysis of the deposited data

How the results depend on the processing

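No choice of threshold, window, flank, distance or strand source changed the direction of the shares or gaps; the strand source restricted to the RefSeq table and the most upstream listed transcript start were chosen after seeing the data. Equal lists of the 8677 strongest peaks did: the difference in call share, esculetin minus control, became 17.8 points, that in summits between the TSSs -0.54 and that in pairs with 2 or more summits 0.21, while 317 pairs were called in all 4 libraries, 3 in the controls alone and 70 with esculetin alone. The gap to single promoters was 46.0 to 54.3 points under every setting. Leaving out each library moved the call share difference between -10.9 and -0.88, the summits between the TSSs between -0.31 (without control 2) and 3.52, the pairs with 2 or more summits between -6.15 and -4.76, the control-only pairs between 28 and 82 (82 without esculetin 2), and the esculetin-only pairs between 7 and 19 (16 without control 1, 19 without control 2, 13 without esculetin 1).

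The number of divergent pairs past the limma threshold was 26 with median centring, 2 with quantile normalization and 1 with regions called in at least 1 library of each group (of 3 of all 6522 regions). Without control 1, control 2, esculetin 1 or esculetin 2 it was 0, where 7, 1, 0 and 0 of all 4649 regions passed. The median log2 difference of 0.12 was -0.12 without control 1 and -0.10 without esculetin 2, and 0.34 and 0.33 without the others, so its direction rests on single libraries. Region by region, the deviations of same-numbered libraries did not correlate (-0.00056 over 4649 regions). This correlation cannot see an offset shared by all regions of a library, so it does not decide whether replicate numbers pair the libraries. A replicate block removed the offset that replicate 2 carried in each group, and 33 pairs then passed (of 274 of all 4649 regions), while the call share difference stayed at -5.90 (exact sign-flip p = 0.5, the smallest possible). Depth limits these statements: a summit rests on a median of 28 to 34 reads, and the absence of a peak is not the absence of open chromatin.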
